A study of Rattus norvegicus with 54 samples.

Results

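The genes described here carry the names of the proteins of the mitochondrial ribosome, although 1 of them, Mrps36, is now placed in another complex. They were taken by name: every probe that carries a single gene symbol of the form Mrpl or Mrps followed by a number, with the brightest probe over all 54 arrays standing for a gene. The rule gave 69 genes from 75 probes, 42 named for the large subunit (Mrpl) and 27 named for the small subunit (Mrps), among 19802 named entries tested, of which 18773 carry a single name. Male Sprague-Dawley rats ate chow (CHOW), a high-fructose diet (HF) or the high-fructose diet with NDGA (HF-NDGA), a plant lignan from the creosote bush. Single-colour arrays profiled the liver, the gastrocnemius (a calf muscle) and the epididymal white adipose tissue, and each diet also has arrays whose label adds the letters INS (CHOW-INS, HF-INS, HF-NDGA-INS), a term that no source used here defines. Each of the 18 groups holds 3 arrays, and the study's methods describe RNA of the rats of a group pooled in equal parts and hybridized as 3 repeats. The p-values here therefore speak of repeat hybridizations of a single pool, and the spread from rat to rat was not measured. The sources differ on the feeding: the treatment protocol gives 16 weeks and 2.5 g NDGA, and the series' design text gives 8 weeks and 2.4 g per kg diet.

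Mitochondria keep their own ribosomes, built from ribosomal RNA that the mitochondrial genome encodes and from proteins that nuclear genes encode and that are imported from the cytosol. In mammals these ribosomes make the few membrane subunits of the respiratory chain and the ATP synthase that mitochondrial DNA specifies. Some of the proteins descend from those of bacterial ribosomes, and others are found only in mitochondria. Their genes are commonly expressed at higher levels in tissues rich in mitochondria.

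Signals are given as log2 intensity after quantile normalization of all 54 arrays. Of the 69 genes, 56 were detected (deposited detection p-value under 0.05) on all 54 arrays and 9 on some of them. The other 4, Mrpl15, Mrpl30, Mrpl48 and Mrps23, were detected on no array, and no fold change is given for them. Mean signals of single genes ran from 4.0 to 13.54, but probes differ in brightness, so genes are not ranked by level. RefSeq holds pseudogenes named after 23 of the genes, 40 in all, and whether a probe also binds their RNA was not tested. The arrays detected 49.3% to 63.2% of all probes, and their median intensities before normalization ran from 71 to 193. The median SD between the 3 arrays of a group was 0.08 over the 69 genes and 0.11 over all genes. The defining markers were high in each labelled tissue: the hepatocyte list averaged 15.63 to 15.92 in liver CHOW, the muscle fibre list 15.89 to 15.97 in muscle CHOW and the adipocyte list 15.73 to 15.78 in adipose CHOW. The adipose pools also carried markers of other tissues. All 3 seminal vesicle genes measured were detected on every array of adipose HF, with a list mean of 14.93 to 15.13, against 5.09 to 5.36 in adipose CHOW, where 2 of the 3 were detected on no array. The muscle fibre list stood at 12.04 to 12.09 in adipose CHOW and 9.21 to 9.38 in adipose HF, with all 5 genes detected in both.

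The regions just before the start sites are shown because many of the genes moved in 1 direction in adipose tissue and in muscle. RefSeq (build GRCr8) gave a promoter window of 300 bases, 250 before and 50 after the start, for 55 of the 69 genes. The letters CCGGAAG, bound by ETS factors such as GABPA, stood on either strand in 18 of the 55 windows (32.7%) and in 9.22% of the 27457 windows of all genes. The NRF1 letters GCGCANGCGC stood in 8 windows (14.5%, all genes 4.71%) and the YY1 letters AAGATGG in 15 (27.3%, all genes 7.30%), and the end of the ETS letters can double as the start of the YY1 letters. At least 1 of these motifs was found in 30 windows (54.5%, all genes 18.9%). The TATA box letters TATAAA stood in 7 windows (12.7%, all genes 14.3%). Among the 55 genes, 18 (32.7%) had the start of another gene on the opposite strand within 1000 bases upstream, against 10.4% of all windows. Mrpl46 and Mrps11 form such a pair with each other, 234 bases apart, and Mrpl47 stands 244 bases from Ndufb5, which encodes a subunit of respiratory complex I. The 150 bases before the start are printed 5′ to 3′ for 4 genes named in the results that hold the NRF1 letters there, which are in capitals, and for Mrpl40 and Mrps21, which rose in adipose HF and hold neither the NRF1, the ETS nor the YY1 letters in this stretch. The window of Mrps21 does hold the ETS letters, just after the start and outside the stretch, and it is counted among the 18. Mrpl44 lies at chr9:88554900-88555049 (+ strand), Mrpl32 at chr17:55260501-55260650 (+ strand), Mrps18b at chr20:2842856-2843005 (+ strand), Mrpl17 at chr1:169575700-169575849 (- strand), Mrpl40 at chr11:95637601-95637750 (+ strand) and Mrps21 at chr2:186103352-186103501 (- strand).
Mrpl44: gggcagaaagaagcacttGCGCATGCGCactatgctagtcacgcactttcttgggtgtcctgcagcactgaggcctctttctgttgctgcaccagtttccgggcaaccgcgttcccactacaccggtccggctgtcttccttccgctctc
Mrpl32: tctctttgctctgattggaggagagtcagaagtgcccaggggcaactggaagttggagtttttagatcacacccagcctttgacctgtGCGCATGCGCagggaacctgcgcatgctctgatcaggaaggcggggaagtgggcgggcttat
Mrps18b: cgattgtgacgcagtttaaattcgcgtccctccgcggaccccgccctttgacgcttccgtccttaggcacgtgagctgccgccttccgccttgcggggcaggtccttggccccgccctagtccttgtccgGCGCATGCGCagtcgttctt
Mrpl17: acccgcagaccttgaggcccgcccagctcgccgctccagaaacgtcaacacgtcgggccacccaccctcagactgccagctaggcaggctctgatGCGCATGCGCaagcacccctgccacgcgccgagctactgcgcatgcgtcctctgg
Mrpl40: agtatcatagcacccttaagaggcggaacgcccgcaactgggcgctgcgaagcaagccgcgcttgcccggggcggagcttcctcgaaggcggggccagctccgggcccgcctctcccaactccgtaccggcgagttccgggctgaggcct
Mrps21: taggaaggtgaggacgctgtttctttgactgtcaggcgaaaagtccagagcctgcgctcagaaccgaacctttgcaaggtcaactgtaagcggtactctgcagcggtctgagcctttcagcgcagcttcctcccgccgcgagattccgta
A match of letters describes the window and is no evidence of binding. The median HF minus CHOW difference in adipose tissue was -0.32 for the genes with the ETS letters and -0.26 for those without, and in muscle it was -0.21 and -0.23. The letters CCAAT stood in 45.5% of the 55 windows (all genes 37.7%) and the GC box letters GGGCGG in 50.9% (all genes 34.9%). For CCAAT the medians with and without were -0.38 and -0.22 in adipose tissue and -0.23 and -0.21 in muscle. In adipose tissue they were -0.32 and -0.26 for NRF1 and -0.26 and -0.27 for YY1. The GC box gave -0.28 and -0.25 there and the TATA box -0.26 and -0.27. No split was tested.

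On chow the genes stood highest in muscle. The median over the 69 genes was 11.66 to 11.76 on the 3 muscle CHOW arrays, 11.19 to 11.24 in liver CHOW and 10.85 to 10.92 in adipose CHOW, so the tissues did not overlap, and the other diets kept the same order. The highest CHOW mean was that of muscle for 53 of the 69 genes, of liver for 11 and of adipose tissue for 5. Against muscle, 50 genes were lower and 8 higher in liver (limma, adjusted p under 0.05; 70.4% of all genes tested passed), with a median difference of -0.80 where the median over all genes was 0.00. In adipose tissue 53 were lower and 7 higher than in muscle (all genes 65.9%), with a median of -0.78 against 0.00. Between liver and adipose tissue 24 were higher in liver and 21 lower (all genes 69.6%), with a median of 0.07 against 0.00. In bulk tissue, fewer cells of a type and less RNA per cell cannot be told apart.

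**Figure D1:**
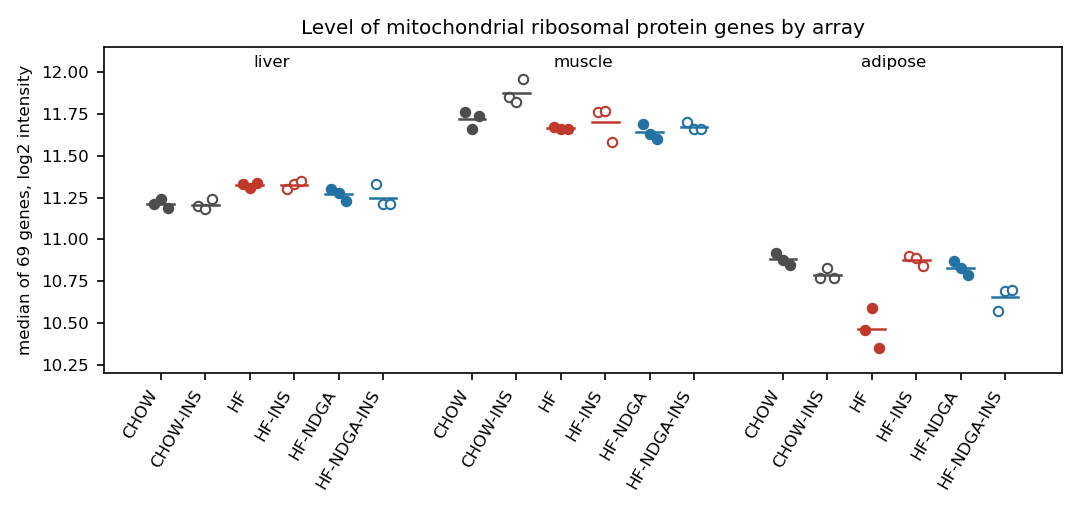
Median log2 intensity of the 69 genes on each of the 54 arrays (points) by tissue and diet, with the mean of the 3 arrays of a group as a line. Filled points are arrays without INS and open points arrays with INS. Muscle arrays lie between 11.58 and 11.96, liver arrays between 11.18 and 11.35 and adipose arrays between 10.35 and 10.92.

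The split between the tissues depended on the scaling. With each array centred on its median, 60 genes were lower and 2 higher in liver than in muscle, without scaling 37 and 8, and with quantile normalization inside each tissue 40 and 14. For adipose tissue against muscle the same settings gave 46 lower and 6 higher, 36 and 11, and 33 and 18 (medians -0.78, -0.43 and -0.21, all genes -0.24, 0.10 and 0.42). Liver against adipose tissue turned to 3 higher and 38 lower with centring, 13 and 30 without scaling and 11 and 41 with normalization inside each tissue, so no direction holds there for the genes as a group.

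Some genes departed far from the group. Mrps5, a relative of the bacterial protein S5 that takes part in accurate decoding, read 10.38, 10.36 and 10.36 in muscle CHOW, 6.90, 6.96 and 7.26 in liver CHOW and 6.72, 6.96 and 6.89 in adipose CHOW. Both other tissues lay far below muscle, by -3.33 ± 0.10 (SE) for liver minus muscle and -3.51 ± 0.10 for adipose tissue minus muscle (limma, adjusted p = 4.47e-28 and 1.40e-28). Mrps10, a relative of bacterial S10, read 8.84, 8.93 and 8.82 in muscle against 6.42, 6.15 and 5.74 in liver, where 2 of the 3 arrays detected it (-2.76 ± 0.16, limma, adjusted p = 2.19e-18). Mrps14, a small-subunit protein with a bacterial relative, read 9.25, 9.17 and 9.09 in adipose tissue against 11.10, 11.11 and 11.13 in muscle (-1.94 ± 0.09, limma, adjusted p = 4.01e-22). In none of these did the tissues named overlap. The same held for 69.1% of all genes for liver against muscle, 69.9% for adipose tissue against muscle and 70.5% for liver against adipose tissue. Mrps36 read 14.10, 14.12 and 14.06 in muscle, 13.25, 13.13 and 13.20 in adipose tissue and 11.35, 11.30 and 11.54 in liver. It was named as a ribosomal protein and is now known as Kgd4, a subunit of the 2-oxoglutarate dehydrogenase complex of the citric acid cycle. Its 3 tissues did not overlap, with liver lowest (liver minus muscle -2.70 ± 0.06, liver minus adipose tissue -1.80 ± 0.06, limma, adjusted p = 1.04e-31 and 1.27e-25).

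A few genes were lowest in muscle or highest in adipose tissue. Mrpl52, found only in mitochondrial ribosomes, read 9.82, 9.94 and 9.80 in liver, 9.10, 9.15 and 9.08 in adipose tissue and 7.99, 7.88 and 8.16 in muscle, without overlap (liver minus muscle 1.84 ± 0.09, limma, adjusted p = 1.45e-20). Mrps21 and Mrps24 were also higher in liver than in muscle, by 1.48 ± 0.21 and 0.58 ± 0.09, and Mrps24 did not pass with each array centred (0.11). Mrps7, whose bacterial relative starts the assembly of the head of the small subunit, read 14.30, 14.21 and 14.20 in adipose tissue, 13.09, 13.20 and 13.06 in muscle and 12.50, 12.54 and 12.55 in liver. Its brightest probe gave 1.12 ± 0.05 for adipose tissue minus muscle (limma, adjusted p = 8.46e-21), whereas the mean of its 2 probes gave 0.10 and did not pass. Mrpl43, found only in mitochondria, read 11.91, 11.74 and 12.06 in liver, against 10.05 at most on each adipose array (1.88 ± 0.09, limma, adjusted p = 1.94e-20). Mrpl14, a core protein of the face that meets the small subunit, read 10.44, 10.36 and 10.46 in adipose tissue, against 12.36, 12.26 and 12.32 in muscle and 12.19, 12.08 and 12.33 in liver. Adipose tissue lay below both others for this gene (adipose minus muscle -1.89 ± 0.09, limma, adjusted p = 1.75e-21).

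**Figure D2:**
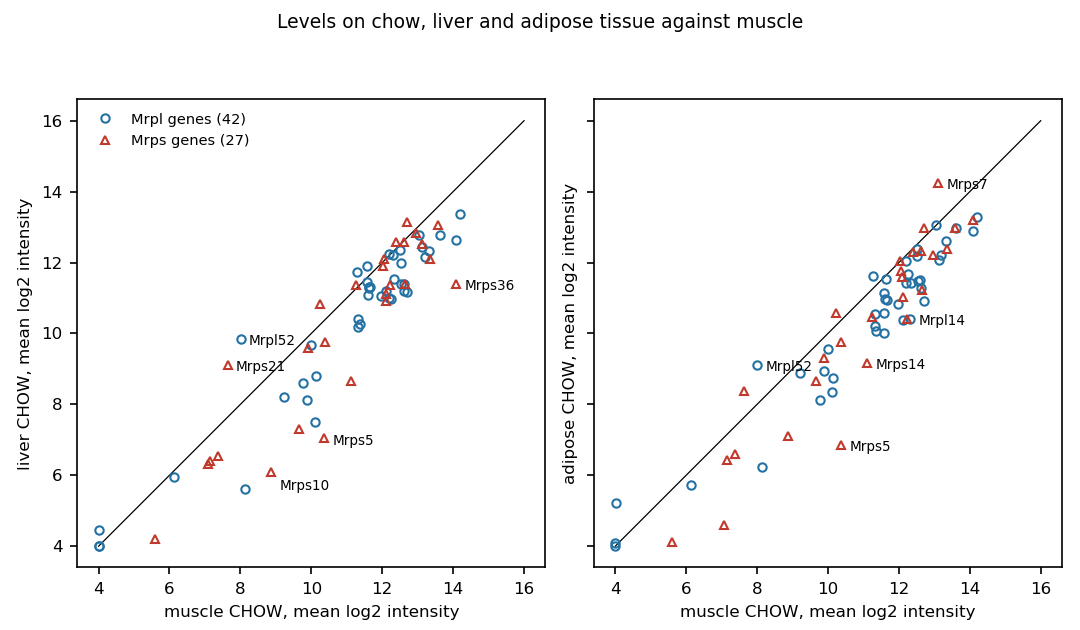
Mean log2 intensity of each of the 69 genes on chow in liver (left) and adipose tissue (right) against muscle, with the line of equal level. Circles are Mrpl genes and triangles Mrps genes, and signals of different genes come from different probes. Most points lie below the line, 50 genes being called lower in liver and 53 lower in adipose tissue.

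In adipose tissue the high-fructose diet went with lower levels of most of these genes. Compared with chow, 40 of the 69 were lower and 2 higher in HF (limma, adjusted p under 0.05), where 54.1% of all genes passed, 37.3% lower and 16.8% higher. The median difference over the 69 genes was -0.24, and over all genes it was -0.11. By name, 26 of the 42 Mrpl genes and 14 of the 27 Mrps genes were lower. By origin, 24 of the 43 genes that have a bacterial relative and 16 of the 26 found only in mitochondria were lower. Centring each array gave 61 lower and 2 higher, with medians of -0.67 over the 69 genes and -0.47 over all genes, and no scaling gave 28 and 3, with -0.20 and 0.00. The seminal vesicle and muscle fibre markers given above move with this comparison, and the erythroid gene Alas2 read 15.08 to 15.17 in HF against 11.42 to 11.64 in CHOW. The lymphocyte list stood at 6.12 to 6.22 against 5.31 to 5.40, values near background. In each of these groups 2 of its 4 genes were detected on no array. Detected on all 3 arrays were 1 in HF and 0 in CHOW. The HF arrays also detected fewer probes (53.6% to 55%) than those of CHOW (55.1% to 58.4%). The part of these features in the result was not tested.

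The largest falls came in genes of different roles. Mrpl44, a large-subunit protein with an RNase III-like fold in which human variants cause cardiomyopathy, read 8.78, 8.74 and 8.65 in CHOW, 7.78, 7.76 and 7.57 in HF and 8.80, 8.83 and 8.93 in HF-NDGA. All HF arrays lay below all others, with HF minus CHOW at -1.02 ± 0.06 (limma, adjusted p = 7.42e-09) and HF-NDGA minus HF at 1.15 ± 0.06 (limma, adjusted p = 2.85e-09). Mrps10 was detected on every CHOW array, at 7.17, 6.97 and 7.18, and on no HF array, where the readings were 5.98, 5.60 and 5.87. It was thus at least 1.52-fold lower in HF (limma, adjusted p = 6.24e-06), the dim side being set at the lowest signal an array could detect. In HF-NDGA it was detected again, at 7.41, 7.39 and 7.58, at least 1.95-fold above HF (limma, adjusted p = 6.88e-07).

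Mrps15, a bacterial S15 relative that binds the small-subunit RNA early in assembly, fell from 8.65, 8.71 and 8.66 to 7.82, 7.91 and 7.82 (-0.82 ± 0.14, limma, adjusted p = 0.000259). Mrpl46, found only in mitochondria, went from 10.99, 11.18 and 11.21 to 10.25, 10.44 and 10.24 (-0.82 ± 0.10, limma, adjusted p = 1.97e-05). Mrpl32, which the m-AAA protease of the inner membrane matures, went from 11.01, 11.03 and 10.85 to 10.21, 10.40 and 10.16 (-0.70 ± 0.10, limma, adjusted p = 6.61e-05). None of the 3 genes had an HF array that reached its CHOW arrays. Among all genes, 58.3% had adipose HF and CHOW arrays that did not overlap. Mrpl30 also passed (limma, adjusted p = 0.000276) although it was detected in neither group, so no size is given.

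The 2 genes that rose did so by more than most of the others fell. Mrpl40, found only in mitochondria, read 8.97, 8.95 and 8.90 in CHOW, 10.42, 10.27 and 10.35 in HF and 8.85, 8.77 and 8.72 in HF-NDGA. The HF arrays stood above both other diets, with HF minus CHOW at 1.41 ± 0.09 (limma, adjusted p = 3.18e-08) and HF-NDGA minus HF at -1.56 ± 0.09 (limma, adjusted p = 1.34e-08). Mrps21, the relative of bacterial S21, read 8.42, 8.25 and 8.47 in CHOW, 9.79, 9.61 and 9.78 in HF and 9.13, 8.92 and 8.80 in HF-NDGA. Here HF minus CHOW was 1.34 ± 0.16 (limma, adjusted p = 1.09e-05) and HF-NDGA minus HF -0.78 ± 0.16 (limma, adjusted p = 0.00111), and every HF-NDGA array stayed above the CHOW arrays.

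With NDGA added, most of these genes stood higher than on HF alone. In adipose tissue 46 of the 69 were higher and 4 lower (limma; all genes 50.7%, 34.1% higher), with a median of 0.35 over the 69 genes and 0.09 over all genes. The HF arrays serve both comparisons, so the values of HF-NDGA minus HF are not independent of those of HF minus CHOW. Centring gave 48 higher and 2 lower (median 0.55, all genes 0.28) and no scaling 47 and 2 (0.44 and 0.17). Besides Mrps10 and Mrpl44, the largest rises were in Mrpl14, Mrpl41 and Mrps9. Mrpl14 read 10.04, 10.04 and 9.80 in HF and 10.74, 10.56 and 10.77 in HF-NDGA (0.73 ± 0.09, limma, adjusted p = 2.24e-05). Mrpl41, found only in mitochondria, read 11.59, 11.80 and 11.73 and then 12.37, 12.59 and 12.33 (0.73 ± 0.10, limma, adjusted p = 3.80e-05). Mrps9, a relative of bacterial S9, read 10.84, 10.84 and 10.64 and then 11.51, 11.44 and 11.51 (0.71 ± 0.05, limma, adjusted p = 7.54e-08). In all 3 the HF and HF-NDGA arrays did not overlap, as was so for 54.2% of all genes.

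Besides Mrpl40 and Mrps21, Mrpl53 and Mrpl18 were lower in HF-NDGA, by -0.25 ± 0.05 and -0.14 ± 0.03 (limma, adjusted p = 0.00135 and 0.00343). Neither call held under other scalings, since centring gave 0.07 and 0.18, and no scaling gave -0.03 for Mrpl53 and 0.07 for Mrpl18. The seminal vesicle list stood at 8.89 to 9.06 in HF-NDGA, between CHOW and HF, and the muscle fibre list at 7.69 to 7.79, below both. Alas2 read 12.16 to 12.29 in HF-NDGA, also below HF. Their part in the rise was not tested.

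**Figure D3:**
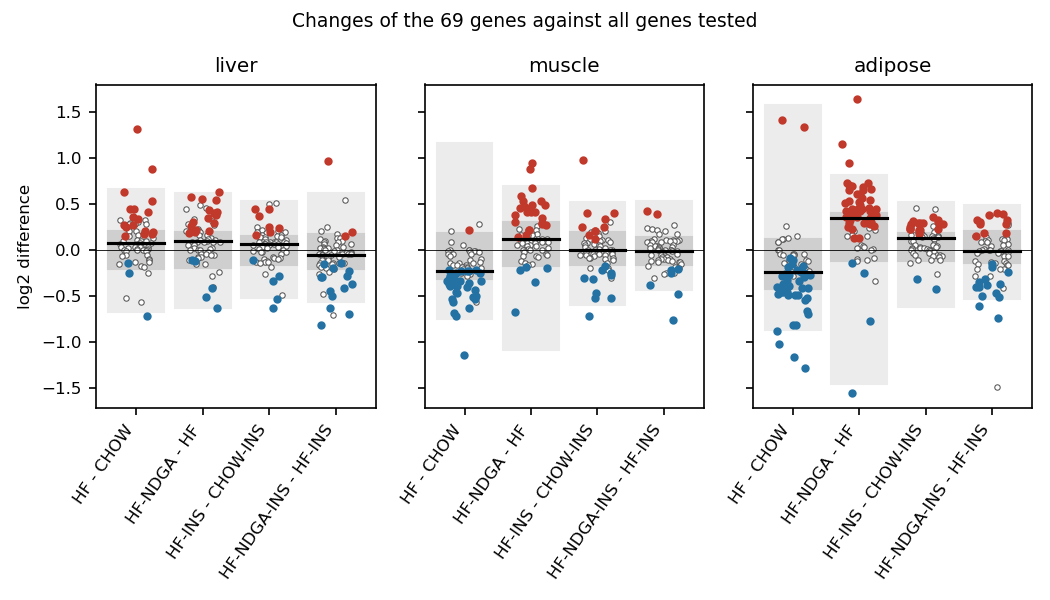
Log2 differences of the 69 genes (points) in 4 diet comparisons of each tissue. Red points passed as higher and blue as lower (adjusted p under 0.05), open points did not pass, the line is the median of the 69 genes, and grey boxes span the 5th to 95th (light) and 25th to 75th (dark) percentiles of all genes tested. Genes below background are drawn at their measured values. The medians of HF minus CHOW for liver, muscle and adipose tissue lie at 0.07, -0.23 and -0.24, and those of HF-NDGA minus HF at 0.10, 0.12 and 0.35.

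**Figure D4:**
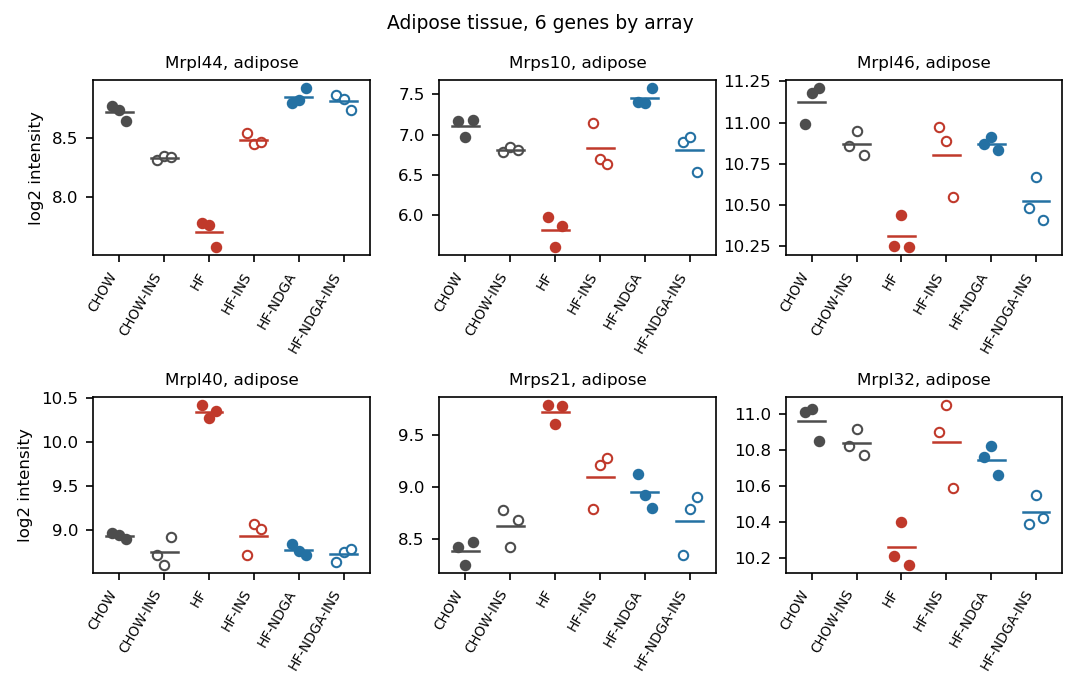
Log2 intensity of 6 genes on the 18 adipose arrays (points, open with INS), with the mean of the 3 arrays of a group as a line. Without INS, Mrpl44, Mrps10, Mrpl46 and Mrpl32 are lowest on the HF arrays, and Mrpl40 and Mrps21 are highest there.

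In muscle the high-fructose diet also went with lower levels. Compared with chow, 33 of the 69 genes were lower in HF and 1 higher (limma; all genes 41.2%, 22.4% lower and 18.8% higher), with a median of -0.23 over the 69 genes and -0.04 over all genes. The count rested on the scaling: centring gave 42 lower and 0 higher (medians -0.36 and -0.22), whereas no scaling gave 4 lower and 3 higher (medians -0.09 and 0.05). Of the 40 genes lower in adipose HF and the 33 lower in muscle HF, 18 were shared, which is 45% of the first list and 54.5% of the second, close to what the lists take of all 69 genes. The muscle HF arrays also carried more of the markers of other cell types. The fibroblast list averaged 13.76 to 13.84 in HF against 12.29 to 12.36 in CHOW, and the macrophage list 10.15 to 10.17 against 8.28 to 8.35, with all 4 genes of each list higher. The hepatocyte list was lower, at 8.41 to 8.48 against 10.42 to 10.45, in all 6 genes, and Alas2 higher, at 9.58 to 9.73 against 8.07 to 8.24. Their part in the result was not tested.

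Mrps5 read 10.38, 10.36 and 10.36 in CHOW, 9.65, 9.58 and 9.81 in HF and 10.68, 10.66 and 10.51 in HF-NDGA. The 3 diets did not overlap, and HF was lowest (HF minus CHOW -0.69 ± 0.06, HF-NDGA minus HF 0.94 ± 0.06, limma, adjusted p = 6.85e-07 and 3.71e-08). Mrps15 read 9.80, 9.54 and 9.64 in CHOW, 9.05, 8.86 and 8.92 in HF and 9.29, 9.53 and 9.77 in HF-NDGA (-0.72 ± 0.11 and 0.59 ± 0.11, limma, adjusted p = 0.000142 and 0.000761). Mrpl38, found only in mitochondria, read 9.74, 9.89 and 9.68, then 9.10, 9.19 and 9.13, then 9.81, 9.59 and 9.63 (-0.63 ± 0.07 and 0.53 ± 0.07, limma, adjusted p = 8.15e-06 and 3.90e-05). The HF arrays of both genes lay below those of CHOW and HF-NDGA. Without scaling neither gene passed in either comparison: Mrps15 gave -0.41 and 0.24 and Mrpl38 -0.33 and 0.19. Among all genes the muscle arrays did not overlap for 51.1% between HF and CHOW and for 45.7% between HF-NDGA and HF.

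Mrpl47, the relative of bacterial L29 at the exit of the peptide tunnel, fell from 8.0, 8.37 and 8.01 to 7.59, 7.53 and 7.53 (-0.57 ± 0.10, limma, adjusted p = 0.000305). Mrps17, a relative of bacterial S17, went from 7.23, 7.60 and 7.30 to 6.80, 6.80 and 6.93 (-0.53 ± 0.12, limma, adjusted p = 0.00291). Without scaling these differences were -0.26 and -0.25 and did not pass. Mrps23 passed below background (limma, adjusted p = 0.0312), so no size is given. The 1 gene that was higher in HF was Mrpl17, a relative of bacterial L17, at 12.52, 12.54 and 12.50 in CHOW and 12.63, 12.82 and 12.76 in HF (0.22 ± 0.05, limma, adjusted p = 0.00301), and centring left 0.04, which did not pass.

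With NDGA, 24 of the 69 genes were higher in muscle and 5 lower than on HF alone (limma; all genes 39.1%), with a median of 0.12 over the 69 genes and 0.03 over all genes. Without scaling between arrays this turned to 2 higher and 8 lower (median -0.08, all genes -0.07). With centring it was 13 higher and 1 lower (median 0.16, all genes 0.17). The direction for the group thus depends on the scaling. The fibroblast and macrophage lists stood at 12.33 to 12.38 and 8.63 to 8.74 in HF-NDGA, below HF, and the hepatocyte list at 10.81 to 10.93, above it. Their part was not tested. Mrps18b, 1 of 3 relatives of bacterial S18, read 12.76, 12.86 and 12.93 in HF and 13.63, 13.59 and 13.36 in HF-NDGA, where all arrays were higher (0.67 ± 0.08, limma, adjusted p = 2.27e-05). Mrpl47 rose by 0.53 ± 0.10 (limma, adjusted p = 0.000580), and by 0.23 without scaling, where it did not pass.

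The 5 genes that fell with NDGA in muscle were Mrpl49, Mrpl41, Mrpl22, Mrps12 and Mrpl17. Mrpl49, found only in mitochondria, read 11.62, 11.66 and 11.52 in HF and 10.55, 11.12 and 11.09 in HF-NDGA, without overlap (-0.68 ± 0.12, limma, adjusted p = 0.000485). Mrps12, a protein of the decoding centre, read 12.43, 12.38 and 12.53 in HF and 12.23, 12.32 and 12.18 in HF-NDGA (-0.20 ± 0.04, limma, adjusted p = 0.00150). Mrpl41, Mrpl22 and Mrpl17 gave -0.35 ± 0.09, -0.22 ± 0.07 and -0.19 ± 0.05. With each array centred, all of these but Mrpl49 missed the threshold, and the mean of both Mrpl41 probes gave -0.15, also without passing. Mrpl22, which lines the peptide tunnel, lost its call without muscle HF replicate 3 (-0.17) or muscle HF-NDGA replicate 1 (-0.16).

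In liver more of the genes were higher in HF than lower. Compared with chow, 17 of the 69 genes were higher in HF and 3 lower (limma; all genes 20.4%, 12.8% higher and 7.52% lower), with a median of 0.07 where all genes had 0.00. Centring gave 28 higher and 1 lower (medians 0.45 and 0.23) and no scaling 16 and 1 (0.16 and -0.06). Mrps10 read 6.42, 6.15 and 5.74 in CHOW and 7.26, 7.40 and 7.60 in HF, so all HF arrays were higher (1.32 ± 0.21, limma, adjusted p = 0.000770). Mrpl12, the stalk protein that also binds the mitochondrial RNA polymerase, read 8.15, 8.25 and 8.23 in CHOW, 8.74, 8.59 and 8.90 in HF and 9.22, 9.30 and 8.94 in HF-NDGA. It rose with HF (0.53 ± 0.12, limma, adjusted p = 0.00896) and again with NDGA (0.41 ± 0.12, limma, adjusted p = 0.0330), and the 3 diets did not overlap. Mrps14 rose by 0.45 ± 0.10 (limma, adjusted p = 0.00803), from 8.63, 8.74 and 8.64 to 9.12, 9.11 and 9.12. Among all genes, 40.2% had liver HF and CHOW arrays that did not overlap. The erythroid gene Alas2 stood at 11.07 to 11.17 in liver HF and 8.97 to 9.31 in CHOW. The macrophage list averaged 10.22 to 10.32 in HF against 10.64 to 10.69 in CHOW, with Ptprc going the other way (7.78 against 7.65). The part of these markers was not tested.

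Mrpl47 was detected on no CHOW array and on every HF array of liver, at least 1.35-fold higher (limma, adjusted p = 0.00512). Mrpl35, a relative of bacterial L35, read 7.50, 7.64 and 7.37 in CHOW and 8.04, 8.10 and 8.25 in HF (0.63 ± 0.16, limma, adjusted p = 0.0158). It lost its call without liver CHOW replicate 3 (0.56), without liver HF replicate 3 (0.57) or without scaling (0.36). The 3 genes that were lower in HF were Mrps28, Mrps24 and Mrpl23. Mrps28, a relative of bacterial S1, was at least 1.09-fold lower (limma, adjusted p = 0.0129), a call lost without liver HF replicate 3 (-0.65). Mrps24, the relative of bacterial S3, read 10.74, 10.79 and 10.94 in CHOW and 10.61, 10.49 and 10.62 in HF (-0.25 ± 0.06, limma, adjusted p = 0.0138). The arrays did not overlap, but without liver CHOW replicate 3 (-0.19) or liver HF replicate 2 (-0.21) it did not pass. Mrpl23, a relative of bacterial L23 at the tunnel exit, at -0.14 ± 0.05 (limma, adjusted p = 0.0487), lost its call when any single array of the 2 groups was left out (-0.16 to -0.12). With each array centred, Mrps24 and Mrpl23 turned to 0.13 and 0.25.

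**Figure D5:**
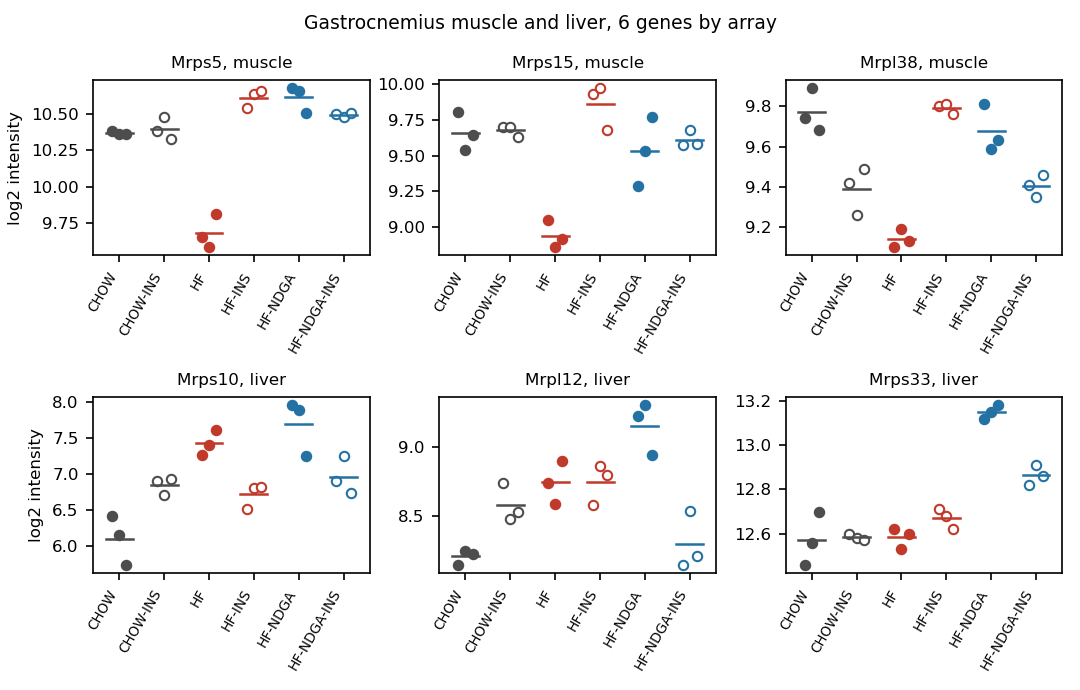
Log2 intensity of 3 genes on the 18 muscle arrays and of 3 genes on the 18 liver arrays, with open points for INS and the mean of 3 arrays as a line. Without INS, muscle Mrps5, Mrps15 and Mrpl38 are lowest on the HF arrays, and liver Mrps33 is highest on the HF-NDGA arrays.

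With NDGA, 16 of the 69 genes were higher in liver and 5 lower than on HF alone (limma; all genes 19.4%, 10.1% higher and 9.35% lower), with a median of 0.10 and, over all genes, 0.00. By name, 9 of the 27 Mrps genes and 7 of the 42 Mrpl genes were higher, and 0 and 5 lower, though the difference between these shares was not tested. Centring left 7 higher and 0 lower (median 0.22, all genes 0.10) and no scaling 9 and 3 (0.04 and -0.08). Alas2 stood at 8.96 to 9.07 in HF-NDGA, below HF. The macrophage list stood at 10.59 to 10.70, above HF, with Cd14 and Cd68 higher and Ptprc and Csf1r lower. The part of these markers was not tested. Mrps33, found only in mitochondria, read 12.62, 12.53 and 12.60 in HF and 13.12, 13.15 and 13.18 in HF-NDGA (0.57 ± 0.05, limma, adjusted p = 2.30e-06). Mrps2, the relative of bacterial S2, read 9.73, 9.69 and 9.65 and then 10.30, 10.23 and 10.19 (0.55 ± 0.07, limma, adjusted p = 0.000130). Mrps18b read 12.11, 12.10 and 12.14 and then 12.61, 12.78 and 12.85 (0.63 ± 0.10, limma, adjusted p = 0.000773). In these 3 genes every HF-NDGA array lay above every HF array, and 34.9% of all genes had no overlap in this comparison.

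Mrps5 and Mrpl14 rose by 0.54 ± 0.12 and 0.43 ± 0.08 in liver (limma, adjusted p = 0.00522 and 0.00238), though without scaling they gave 0.34 and 0.42 and did not pass. Mrpl54, found only in mitochondria, read 10.97, 11.14 and 10.89 in HF and 10.56, 10.42 and 10.13 in HF-NDGA (-0.63 ± 0.17, limma, adjusted p = 0.0226). Its call was lost without liver HF replicate 1 (-0.64), liver HF replicate 2 (-0.56) or liver HF-NDGA replicate 3 (-0.51), with centring (-0.55) and in a fit of the 9 arrays without INS (-0.68). Mrpl18, a relative of bacterial L18, read 11.16, 11.32 and 11.37 in HF and 10.83, 10.80 and 10.72 in HF-NDGA (-0.51 ± 0.11, limma, adjusted p = 0.00584). Mrpl53, found only in mitochondria, gave -0.42 ± 0.08 (limma, adjusted p = 0.00286), and with centring neither gene passed (-0.41 and -0.33). Mrpl22 and Mrpl34 gave -0.12 ± 0.04 and -0.11 ± 0.03. Mrpl22 lost its call without any 1 of liver HF replicates 1, 2 and 3 and liver HF-NDGA replicates 2 and 3 (-0.13 to -0.11), and Mrpl34 without liver HF replicate 3 or liver HF-NDGA replicate 1 or 3 (-0.10 each), and with centring they stood at 0.00 and 0.00.

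Whether the diet difference itself differed between tissues was tested in a fit of all 54 arrays. HF minus CHOW was more positive in liver than in muscle for 33 of the 69 genes and less for 1 (limma; all genes 37.9%), with a median of 0.28 over the 69 genes and 0.02 over all genes. It was more positive in liver than in adipose tissue for 41 and less for 5 (limma; all genes 51.6%), with medians of 0.36 and 0.10. Between adipose tissue and muscle the split was 14 and 14 (limma; all genes 48.3%), and it moved to 5 more and 20 less positive with centring and 6 and 15 without scaling. Of the 17 genes higher in liver HF, 11 (64.7%) were among the 40 of 69 lower in adipose HF (27.5% of that list) and 11 were among the 33 of 69 lower in muscle HF (33.3%). Mrps10 passed both comparisons with liver (limma, adjusted p = 1.64e-07 for muscle and 4.41e-12 for adipose tissue). Against muscle its difference was 1.66 ± 0.23, and against adipose tissue no size is given because no adipose HF array detected it. Mrpl50, found only in mitochondria, was the 1 gene that passed in all 6 comparisons of HF with CHOW and HF-NDGA with HF. In liver it read 11.10, 11.18 and 11.22 in CHOW, 11.50, 11.44 and 11.59 in HF and 11.96, 11.83 and 11.93 in HF-NDGA. In muscle it read 12.78, 12.59 and 12.75, then 12.45, 12.21 and 12.38, then 12.85, 12.77 and 12.91. The liver arrays rose at each step without overlap, and the muscle HF arrays lay below the other diets. In adipose tissue its CHOW arrays (10.88 to 10.97) and HF arrays (10.64 to 10.89) overlapped. The adipose HF-NDGA arrays (11.14 to 11.19) lay above both.

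On the arrays labelled INS the split of the genes was another. In adipose tissue HF-INS against CHOW-INS gave 17 genes higher and 2 lower (limma; all genes 24%), with a median of 0.13 against 0.00 over all genes. Centring turned this to 1 higher and 2 lower (median 0.02, all genes -0.06) and no scaling to 44 and 0 (0.39 and 0.31). HF-NDGA-INS against HF-INS gave 11 higher and 14 lower (limma; all genes 26%), 7 and 0 with centring (median 0.13, all genes 0.11) and 7 and 4 without scaling (0.02 and 0.00). The count of calls fell to 15 without adipose HF-NDGA-INS replicate 1. Mrpl44 read 8.32, 8.35 and 8.34 in CHOW-INS, 8.55, 8.45 and 8.47 in HF-INS and 8.87, 8.84 and 8.74 in HF-NDGA-INS. Mrpl40 read 8.72, 8.61 and 8.92, then 8.72, 9.07 and 9.01, then 8.64, 8.76 and 8.79. For Mrpl44 the HF-INS arrays lay above the CHOW-INS arrays, and for Mrpl40 the 2 groups overlapped. Among all genes, 35.8% had no overlap between these 2 groups. The seminal vesicle list was at 5.13 to 5.46 in adipose CHOW-INS and 6.61 to 6.85 in HF-INS, and the muscle fibre list at 9.17 to 9.24 and 7.89 to 8.07. The hepatocyte list stood at 8.46 to 8.49 in CHOW-INS, 10.67 to 10.75 in HF-INS and 8.04 to 8.06 in HF-NDGA-INS, and the lymphocyte list at 8.35 to 8.59 in CHOW-INS and 5.12 to 5.20 in HF-INS. The macrophage list stood at 12.21 to 12.31 in CHOW-INS and 11.54 to 11.57 in HF-INS. Within that list Cd14 went the other way, at 11.27 in CHOW-INS and 11.84 in HF-INS. Alas2 read 11.09 to 11.30 in CHOW-INS and 11.88 to 12.16 in HF-INS. The part of these markers was not tested. Tested as a difference of differences, HF minus CHOW was more positive with INS for 41 of the 69 genes and less for 2 in adipose tissue (limma; all genes 43.3%, medians 0.34 and 0.10), and HF-NDGA minus HF was more positive for 1 and less for 38 (limma; all genes 36.8%, medians -0.37 and -0.06). Centring gave 51 and 2 for the first (medians 0.71, all genes 0.34) and 1 and 13 for the second (-0.35 and -0.16). No scaling gave 51 and 2 (0.6 and 0.23) and then 1 and 32 (-0.36 and -0.17).

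In muscle, HF-INS against CHOW-INS gave 10 higher and 10 lower (limma; all genes 24%), 12 and 2 with centring and 7 and 3 without scaling. HF-NDGA-INS against HF-INS gave 2 higher and 6 lower (limma; all genes 15.6%), 2 and 2 with centring and 1 and 1 without scaling. Mrps5 read 10.38, 10.48 and 10.33 in CHOW-INS, 10.54, 10.64 and 10.66 in HF-INS and 10.50, 10.48 and 10.51 in HF-NDGA-INS, so HF-INS was not the lowest group. The fibroblast list was at 12.83 to 12.86 in CHOW-INS and 12.21 to 12.28 in HF-INS, and the hepatocyte list at 9.81 to 9.88 and 9.12 to 9.13, and their part was not tested. The difference of differences for HF minus CHOW was more positive with INS for 27 genes and less for 6 (limma; all genes 41%), 41 and 1 with centring and 14 and 1 without scaling. For HF-NDGA minus HF it was 4 and 22 (limma; all genes 37.2%), 2 and 8 with centring and 6 and 5 without scaling.

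In liver, HF-INS against CHOW-INS gave 7 higher and 5 lower (limma; all genes 11.4%). Its 12 calls became 3 without liver CHOW-INS replicate 2, 6 without liver CHOW-INS replicate 3, 5 without liver HF-INS replicate 1 and 4 without liver HF-INS replicate 3. Without scaling the split was 6 higher and 1 lower, and with centring 0 and 0. HF-NDGA-INS against HF-INS gave 3 higher and 14 lower (limma; all genes 17.3%), 1 and 24 with centring (median -0.4, all genes -0.23) and 6 and 0 without scaling (0.08 and 0.25). Its 17 calls became 10 and 8 without liver HF-INS replicate 2 or 3 and 11 and 8 without liver HF-NDGA-INS replicate 1 or 3. The difference of differences passed for 1 gene more positive and 2 less for HF minus CHOW (limma; all genes 5.29%), 0 and 2 with centring and 0 and 2 without scaling. For HF-NDGA minus HF it passed for 1 and 16 (limma; all genes 15.2%), 1 and 32 with centring (median -0.61, all genes -0.32) and 3 and 3 without scaling (0.05 and 0.34). The 17 calls became 11 without liver HF replicate 2 and 10 without liver HF-NDGA-INS replicate 1. Mrps10 read 6.90, 6.71 and 6.93 in CHOW-INS and 6.51, 6.81 and 6.82 in HF-INS, overlapping where the groups without INS did not.

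Averaged over the 3 diets, arrays with INS differed from those without in 0 genes higher and 4 lower in liver (limma; all genes 5.93%), and the calls became 7 without liver CHOW replicate 2. In muscle 16 were higher and 4 lower (limma; all genes 24.2%), with 11 and 0 under centring (median 0.09, all genes 0.08) and 1 and 2 without scaling (-0.03 and -0.04). In adipose tissue 15 were higher and 4 lower (limma; all genes 31.8%), with 0 and 2 under centring and 46 and 1 without scaling, and 12 calls were left without adipose CHOW replicate 3, adipose HF-NDGA replicate 3 or adipose HF-NDGA-INS replicate 3. No direction of the INS label holds for the genes across these scalings.

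The genes with a known role beyond those described above gave the following values. Mrpl3, a core protein in which human variants cause cardiomyopathy, read 11.30, 11.02 and 11.31 in liver CHOW and 11.50, 11.63 and 11.57 in liver HF (0.36 ± 0.09, limma, adjusted p = 0.0144). In adipose tissue it rose with NDGA (0.38 ± 0.07, limma, adjusted p = 0.000297) and did not pass for HF minus CHOW (-0.14 ± 0.07). Mrpl10, the base of the stalk, rose with NDGA in muscle (0.30 ± 0.08) and in adipose tissue (0.43 ± 0.08, limma, adjusted p = 0.00561 and 0.000315), and on chow it was higher in liver than in muscle (0.46 ± 0.07). Mrps34, a mitochondria-specific protein with human variants in Leigh syndrome, read 12.16, 12.19 and 12.28 in adipose CHOW, 11.45, 11.60 and 11.58 in HF and 12.25, 12.07 and 12.13 in HF-NDGA. Its HF arrays lay below both other diets (-0.67 ± 0.10 and 0.61 ± 0.10, limma, adjusted p = 9.93e-05 and 0.000225). Mrps27, a pentatricopeptide repeat protein, read 6.53, 6.51 and 6.22 in adipose CHOW and 5.50, 5.51 and 5.60 in HF, with 1 and 0 arrays detected (limma, adjusted p = 0.000238), so no fold is given.

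Mrps18a, named for the small subunit but placed in the large one, passed as higher in liver HF (0.17 ± 0.05) and as lower in muscle HF (-0.25 ± 0.07) and adipose HF (-0.39 ± 0.07, limma, adjusted p = 0.0402, 0.0114 and 0.000290). Mrps36, the gene now known as Kgd4, rose in liver with HF (0.27 ± 0.06) and with NDGA (0.38 ± 0.06, limma, adjusted p = 0.00784 and 0.000620), and in muscle and adipose tissue none of its 4 diet comparisons passed. Mrps16, in which human variants cause a fatal lactic acidosis of the newborn, passed in none of the 6 comparisons of HF with CHOW and HF-NDGA with HF, and its differences lay between -0.11 and 0.13. Mrpl45, which anchors the ribosome to the inner membrane, was detected on 6 of the 54 arrays and passed in none of them either. The other genes that passed in none were Mrpl15, Mrpl48 and Mrps35.

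Mrps30, also placed in the large subunit, turned on a single array. It read 6.51, 11.16 and 11.12 in adipose HF-NDGA-INS, where replicate 1 stood far below the rest. With that array in the fit, adipose HF-NDGA minus HF was 0.25 ± 0.87 (limma, adjusted p = 0.912), and without it 0.25 ± 0.10 (adjusted p = 0.0497). On chow, adipose tissue minus muscle was -1.09 with an adjusted p of 0.0619 with the array and 1.78e-15 without it, and liver minus muscle was -1.21 with 0.0353 and 6.10e-17 (limma). HF minus CHOW then also passed as more positive in liver than in muscle (0.43 ± 0.11, limma, adjusted p = 0.00158) and than in adipose tissue (0.27 ± 0.11, adjusted p = 0.0353).

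Genes that work with the mitochondrial ribosome were counted from lists for comparison. Of the 17 measured genes for its assembly, in adipose tissue 0 rose and 12 fell with HF, and 15 rose and 1 fell when NDGA was added, with medians of -0.53 and 0.46. The shares of all genes called in these comparisons were 54.1% and 50.7% in adipose tissue, 41.2% and 39.1% in muscle and 20.4% and 19.4% in liver, for HF and NDGA in turn. In muscle 1 rose and 10 fell with HF, and 9 rose and 1 fell when NDGA was added, and in liver 5 rose and 0 fell with HF, and 5 rose and 0 fell when NDGA was added. Eral1, a GTPase that chaperones the small-subunit RNA, fell in adipose HF (-0.76 ± 0.06, limma, adjusted p = 2.76e-07) and muscle HF (-0.59 ± 0.08) and rose in liver HF (0.60 ± 0.10). Mterfd2, which brings an RNA methyltransferase to the large subunit, fell in adipose HF (-0.83 ± 0.08, limma, adjusted p = 2.58e-06). Gtpbp10, a GTPase of large-subunit assembly, fell in muscle HF (-0.62 ± 0.09) and rose when NDGA was added (0.56 ± 0.09).

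Of the 11 measured translation factors, in adipose tissue 0 rose and 7 fell with HF, and 6 rose and 1 fell when NDGA was added (all genes called 54.1% and 50.7%). Mtif2, the initiation factor, gave -0.52 ± 0.04 and 0.51 ± 0.04 in these comparisons, and Tsfm, an elongation factor, gave -0.64 ± 0.10 and 0.47 ± 0.10. In muscle 0 rose and 4 fell with HF, and 3 rose and 1 fell when NDGA was added (all genes 41.2% and 39.1%). In liver 3 rose and 0 fell with HF, and 1 rose and 1 fell when NDGA was added (all genes 20.4% and 19.4%). The 16 measured aminoacyl-tRNA synthetases charge the tRNAs of mitochondria. Of these, in adipose tissue 1 rose and 9 fell with HF, and 10 rose and 3 fell when NDGA was added (all genes called 54.1% and 50.7%). In muscle 2 rose and 5 fell with HF, and 5 rose and 0 fell when NDGA was added (all genes 41.2% and 39.1%), and in liver 6 rose and 0 fell with HF, and 5 rose and 0 fell when NDGA was added (all genes 20.4% and 19.4%). Another 7 proteins of the mitochondrial ribosome carry other names. In adipose tissue 1 rose and 5 fell with HF, and 5 rose and 1 fell when NDGA was added (all genes called 54.1% and 50.7%). Chchd1 and Gadd45gip1 fell in adipose HF (-0.84 ± 0.10 and -0.76 ± 0.12), and the gene that rose was Ict1, a peptidyl-tRNA hydrolase built into the large subunit (0.58 ± 0.07).

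The ribosomal RNA comes from transcription of mitochondrial DNA. Of the 9 measured genes for its transcription and replication, in adipose tissue 1 rose and 7 fell with HF, and 7 rose and 1 fell when NDGA was added (all genes called 54.1% and 50.7%). In muscle 1 rose and 7 fell with HF, and 4 rose and 1 fell when NDGA was added (all genes 41.2% and 39.1%), and in liver 3 rose and 2 fell with HF, and 3 rose and 1 fell when NDGA was added (all genes 20.4% and 19.4%). Tfb2m, a transcription factor of mitochondrial DNA, fell in muscle HF (-0.71 ± 0.08) and rose when NDGA was added (0.55 ± 0.08). Of the 9 measured regulators of mitochondrial biogenesis, in adipose tissue 1 rose and 7 fell with HF, and 4 rose and 2 fell when NDGA was added (all genes called 54.1% and 50.7%). Gabpa, whose binding letters were counted above, gave -0.96 ± 0.06 with HF and 1.04 ± 0.06 when NDGA was added (limma, adjusted p = 2.81e-08 and 1.62e-08). Nrf1 gave -0.71 ± 0.09 and 0.76 ± 0.09 there (limma, adjusted p = 1.25e-05 and 6.89e-06). In liver 4 rose and 1 fell with HF, and 1 rose and 1 fell when NDGA was added (all genes 20.4% and 19.4%), and with HF Pprc1, a relative of PGC-1, rose by 1.38 ± 0.14 and Nrf1 by 0.67 ± 0.14 (limma, adjusted p = 2.08e-05 and 0.00527). In muscle 2 rose and 1 fell with HF, and 2 rose and 3 fell when NDGA was added (all genes 41.2% and 39.1%).

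The respiratory chain and ATP synthase list of 77 measured genes holds partners of the proteins that these ribosomes make. In adipose tissue 3 rose and 37 fell with HF, and 39 rose and 8 fell when NDGA was added (all genes called 54.1% and 50.7%), with medians of -0.17 and 0.16. In muscle 4 rose and 30 fell with HF, and 17 rose and 9 fell when NDGA was added (all genes 41.2% and 39.1%). In liver 7 rose and 1 fell with HF, and 9 rose and 10 fell when NDGA was added (all genes 20.4% and 19.4%). On chow 67 of the 77 were lower in liver than in muscle (all genes called 70.4%, 37.4% lower). Cytosolic ribosomes share no protein genes with the mitochondrial ones. Of their 33 measured genes, in adipose tissue 2 rose and 13 fell with HF, and 17 rose and 3 fell when NDGA was added (all genes called 54.1% and 50.7%), with a median of 0.00 for HF. In muscle 6 rose and 4 fell with HF, and 4 rose and 13 fell when NDGA was added (all genes 41.2% and 39.1%). With HF, 40 of the 77 respiratory chain genes were called in adipose tissue and 34 in muscle, near the shares of all genes. The differences between these lists and the 69 genes were not tested.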

How the data were processed

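RNA of liver, gastrocnemius muscle and epididymal adipose tissue was hybridized to single-colour arrays of 24358 probes (54 arrays, 18 groups of 3). Per the file headers the authors deposited linear background-subtracted intensity values (-44 to 65506) with a detection p-value for each probe. The study's methods speak of normalization and log2 transformation in Partek, which these values do not carry, and the deposited second table was identical in all 1315332 values. Here all 54 arrays were quantile normalized together, values under 16 were set to 16 and log2 taken, and the probe with the highest mean stood for each of 19802 named entries. No pair of arrays was identical. Probes with 1 name numbered 21270, with several names 1175 and with none 1913 (7.85%).

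Groups were compared with limma 3.58.1 (lmFit and eBayes, R 4.3.3) with Benjamini-Hochberg adjustment over all 19802 entries, two-sided, in 27 comparisons, on the 18 arrays of a tissue or, across tissues, on all 54. The scripts were tested on simulated data. A group with no array detected gives only a bound, set at the lowest signal detected on its arrays, and no fold where both groups are undetected or the bound is under 1. The members and lists were chosen with earlier results of these data known.

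Named were, for HF and NDGA in each tissue, up to 5 genes with the largest called rise and fall among those detected on all 3 arrays of a group, 3 each way between tissues, and the genes with a listed role. The rule also takes the most and least abundant genes, which are left out since probe signals do not rank genes. Mrpl30, Mrps23, Mrpl50 and the genes never called were named after their values were seen. For the other lists the rule takes up to 3 genes each way, of which some are given. Alternatives changed the scaling, floor, probes, genes tested, variance model, fold and arrays. Counting lower-case symbols or only genes detected on all arrays, and leaving out the Mrps30 array, were added after the data were seen. The precision is limited by the number of arrays.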

Additional observations from a re-analysis of the deposited data

Results flagged for a closer look

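The groups hold 3 arrays each, too few to look for single arrays that stand apart by a fixed rule, so every result here is one in which the same diet difference differed between 2 sets of arrays by its own test (limma, adjusted p under 0.05). Values in parentheses are differences of differences on the log2 scale, with INS minus without INS, and all rest on 1 RNA pool per group. The genes named here by diet were chosen largely for their differences without INS, and those differences also enter this test. A difference of differences of the opposite sign thus follows in part from the choice. No cause was tested.

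In liver 3 of the 69 genes differed by INS for HF minus CHOW (all genes 5.29%), among them Mrps10 (-1.45) and Mrpl23 (0.34). For HF-NDGA minus HF 17 genes differed (all genes 15.2%), among them Mrps18b (-0.78), Mrps33 (-0.38), Mrps2 (-0.42), Mrpl14 (-0.37) and Mrpl53 (0.45). Mrpl53 was more positive with INS and the 4 genes named before it less, a split that the choice of genes favours.

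In muscle 33 genes differed by INS for HF minus CHOW (all genes 41%). The genes named above gave Mrpl17 (-0.43), Mrps15 (0.91), Mrps5 (0.90), Mrpl38 (1.02), Mrpl47 (0.68) and Mrps17 (0.68). Mrpl17, the gene higher in HF without INS, was thus less positive with INS and the others more, which the choice of genes also favours. For HF-NDGA minus HF 26 genes differed (all genes 37.2%), among them Mrps5 (-1.05), Mrps18b (-0.62), Mrps15 (-0.84), Mrpl47 (-0.63), Mrpl38 (-0.91), Mrpl49 (0.58), Mrpl41 (0.59), Mrps12 (0.24) and Mrpl17 (0.21). The fibroblast and macrophage markers that differed between muscle HF and CHOW moved with these values, and their part was not tested.

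In adipose tissue 43 genes differed by INS for HF minus CHOW (all genes 43.3%), among them Mrpl40 (-1.22), Mrps21 (-0.88), Mrpl44 (1.18), Mrps15 (0.68), Mrpl46 (0.75) and Mrpl32 (0.71). Mrpl40 and Mrps21, which rose with HF without INS, were less positive with INS, and the 4 others, which fell, were more positive. The choice of genes favours this split as well. For HF-NDGA minus HF 39 genes differed (all genes 36.8%), among them Mrpl44 (-0.83), Mrpl14 (-0.46), Mrpl41 (-1.01), Mrps9 (-0.54), Mrpl40 (1.36) and Mrpl18 (-0.47). Mrps10 also differed in both, and no size is given because no adipose HF array detected it. The seminal vesicle markers were high in adipose HF and lower in HF-INS, and their part was not tested.

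Between tissues, HF minus CHOW differed for 34 genes between liver and muscle (all genes 37.9%) and for 46 between liver and adipose tissue (51.6%). It differed for 28 between adipose tissue and muscle (48.3%).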

How the results depend on the processing

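Counts below are of the 69 genes called, with HF for HF minus CHOW, NDGA for HF-NDGA minus HF, and "by INS" or "by tissue" for the test of a difference of differences. Under the alternatives that changed the scaling, the floor, the probes, the variance model or the members, counts not given here stayed within 1.5 times the reported ones. Centring each array on its median gave 7 for NDGA, 0 for HF-INS, 0 for the INS mean and 33 for NDGA by INS in liver. It gave 14 for NDGA, 4 for NDGA-INS, 11 for the INS mean and 10 for NDGA by INS in muscle. It gave 3 for HF-INS, 7 for NDGA-INS, 2 for the INS mean and 14 for NDGA by INS in adipose tissue. It gave 54 for HF by tissue with liver against muscle. No scaling between arrays gave 12 for NDGA, 7 for HF-INS, 6 for NDGA-INS, 1 for the INS mean and 6 for NDGA by INS in liver. It gave 7 for HF, 10 for NDGA, 10 for HF-INS, 2 for NDGA-INS, 3 for the INS mean, 15 for HF by INS and 11 for NDGA by INS in muscle. It gave 44 for HF-INS, 11 for NDGA-INS and 47 for the INS mean in adipose tissue. It gave 18 for HF by tissue with liver against muscle. A floor of 1 gave 5 for HF-INS and 10 for NDGA-INS in liver and 11 for the INS mean in adipose tissue. Testing only detected genes gave 12 for the INS mean in adipose tissue, and counting only genes detected on all 54 arrays gave 1 for HF by INS in liver. The cause was not tested. Asking for at least 2-fold as well, which by its construction leaves fewer calls, gave 1 for HF, 0 for NDGA, 0 for HF-INS, 0 for NDGA-INS, 0 for the INS mean, 1 for HF by INS and 2 for NDGA by INS in liver. It gave 1 for HF, 0 for NDGA, 0 for HF-INS, 0 for NDGA-INS, 0 for the INS mean, 2 for HF by INS and 2 for NDGA by INS in muscle. It gave 5 for HF, 3 for NDGA, 0 for HF-INS, 0 for NDGA-INS, 0 for the INS mean, 4 for HF by INS and 5 for NDGA by INS in adipose tissue. It gave 27 for CHOW and 4 for HF by tissue with liver against muscle. It gave 6 for CHOW and 5 for HF by tissue with liver against adipose tissue. It gave 27 for CHOW and 4 for HF by tissue with adipose tissue against muscle. 

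Leaving out each array in turn (54 refits) gave 14 to 19 (from 20) for HF, 16 to 21 (from 21) for NDGA, 3 to 11 (from 12) for HF-INS, 8 to 16 (from 17) for NDGA-INS, 3 to 7 (from 4) for the INS mean, 3 to 4 (from 3) for HF by INS and 10 to 22 (from 17) for NDGA by INS in liver. It gave 27 to 32 (from 34) for HF, 26 to 32 (from 29) for NDGA, 14 to 18 (from 20) for HF-INS, 6 to 8 (from 8) for NDGA-INS, 17 to 22 (from 20) for the INS mean, 30 to 34 (from 33) for HF by INS and 22 to 29 (from 26) for NDGA by INS in muscle. It gave 36 to 41 (from 42) for HF, 46 to 48 (from 50) for NDGA, 13 to 21 (from 19) for HF-INS, 15 to 22 (from 25) for NDGA-INS, 12 to 18 (from 19) for the INS mean, 38 to 44 (from 43) for HF by INS and 38 to 41 (from 39) for NDGA by INS in adipose tissue. It gave 54 to 57 (from 58) for CHOW and 30 to 36 (from 34) for HF by tissue with liver against muscle. It gave 39 to 43 (from 45) for CHOW and 41 to 45 (from 46) for HF by tissue with liver against adipose tissue. It gave 60 in every refit for CHOW and 22 to 27 (from 28) for HF by tissue with adipose tissue against muscle. Of the named genes' values under these alternatives, 936 kept their direction and call, 60 lost the call and 6 turned sign. Those that turned were Mrps24 (0.13), Mrpl23 (0.25) for HF in liver, Mrpl22 (0.00) for NDGA in liver and Mrpl53 (0.07) and Mrpl18 (0.18) for NDGA in adipose tissue, all with centring, and Mrpl18 without scaling (0.07). No paired analysis was possible because the labels give the arrays of a group no replicate numbers. The arrays number 3 for each pool and no rats are replicated, and below background a probe gives only a bound.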
